A study of Mus musculus with 4 samples.

Results

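The cells described here are the Des/Tnnt2 cells of Myrf mutant lungs: living tdTomato-positive cells that carried transcripts of both Des, the muscle intermediate filament desmin, and Tnnt2, the troponin T of cardiac muscle. They were chosen in the 2 mutant libraries from barcodes in which 1000 genes or more were detected and mitochondrial transcripts held no more than 15% of the UMIs (unique molecular identifiers, each counting 1 captured transcript), keeping those with at least 2 UMIs of Tnnt2 and at least 2 of Des per 10000 UMIs of the cell (CP10k). This left 123 cells in mutant library 1 and 556 in mutant library 2, 679 of the 8733 cells that passed in the whole series. The limits use measured levels, so the levels of Tnnt2 and Des describe the choice and carry no test. The 4 further genes by which the group had been recognised, Actc1, Tagln, Actg2 and Ramp1, are likewise only described.

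The study asked what the transcription factor Myrf does in the mesothelium of the developing mouse lung. All embryos carried a tdTomato reporter at Rosa26 (R26TdTomato) and a tamoxifen-activated Cre driven by Wt1 (Wt1creERT2), and the stated mating joined 2 parents with floxed Myrf alleles (Myrf Fl/Fl). Tamoxifen was given at E12.5 (E counts embryonic days), and the lungs were collected at E16.5. Lungs were called mutant or Cre control by the look of the lung and its cells and typed by PCR afterwards. The 2 mutant and the 2 control groups of cells came from pools of 3 to 5 embryos of 1 genotype. The labels do not give the Myrf alleles of the controls and do not tell whether replicate libraries had pools of their own, so p-values measure only the spread between these libraries, which may be technical. Any cell that expressed Wt1 when tamoxifen acted, and its descendants, can carry the reporter.

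The mesothelium is the flat epithelium that covers the lung and lines the chest cavity, and Wt1, Msln, Upk3b and Lrrn4 are among its defining genes. Mesothelial cells of the embryo can leave the layer and give rise to smooth muscle and fibroblasts of the lung below. Smooth muscle shortens through actin and myosin filaments built from Acta2, Actg2 and Myh11 with regulators such as Tagln and Cnn1, whereas Tnnt2 and Actc1 belong to the striated filaments of heart muscle, where troponin and not Cnn1 or Myh11 sets contraction.

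The libraries differed in size and depth. Passing cells numbered 282 and 3607 in controls 1 and 2 and 412 and 4432 in mutants 1 and 2, with medians of 14402 to 38681 UMIs per cell. The Des/Tnnt2 cells were deeper than their libraries, with medians of 50080.0 and 19656.5 UMIs against 38681 and 16219. Their UMIs were summed per library (8203305 and 14731903) and set against 3 other sums made the same way. Myh11 cells (Myh11 at 3 or more and Tnnt2 under 1 CP10k) stood for smooth muscle of the same mutants, with 50 and 284 cells. With each cell thinned to 5000 UMIs, Pdgfra, a receptor of lung mesenchyme, was seen in 59.6 and 62.6% of these Myh11 cells. In Des/Tnnt2 cells it was seen in 10.2 and 8.84%. The Myh11 cells may thus hold other mesenchymal cells beside smooth muscle, and differences from them are not differences from smooth muscle alone. Tcf21 cells (Tcf21 at 2 or more, with Tnnt2, Des and Myh11 each under 1 CP10k) stood for fibroblasts of the same mutants, with 10 and 416 cells. Control mesothelium (Upk3b at 10 or more, with Tnnt2, Des and Myh11 each under 1 CP10k) held 57 and 355 cells. Without the limits on the 3 muscle genes it would have held 106 and 716 control cells. The same Upk3b limit alone was reached by 1 and 6 mutant cells. The Tcf21 sum of mutant 1 rests on 10 cells and 286544 UMIs. No Des/Tnnt2 barcode was shared between libraries. Levels below are UMIs per 1000000 UMIs of the sum (CPM), given for library 1 and then library 2, and a change is a log2 fold change ± its standard error from edgeR, adjusted over all genes tested. Because transcripts were counted at their 3' ends, levels are not divided by gene length, and genes are compared between cells and not with each other.

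Both limits were reached together more often in mutants. The Des/Tnnt2 cells made up 29.9% of mutant 1 (exact 95% binomial interval 25.5 to 34.5%) and 12.55% of mutant 2 (11.6 to 13.6%). The same limits were passed by 1 of 282 cells in control 1 (0.355%) and by 26 of 3607 in control 2 (0.721%). These intervals cover counting error only. In cells thinned to 5000 UMIs, where 1 UMI of each gene reaches the limit, the shares were 34.7 and 15.97% in mutants and 2.41 and 4.92% in controls. The shares of both mutants lay above those of both controls either way, and the 2 mutant libraries also differed from each other beyond counting error. Of the mutant cells at the Tnnt2 limit, 68.7% in mutant 1 and 56.1% in mutant 2 were also at the Des limit, whereas in the controls it was 3.13% of 32 cells and 6.22% of 418. Control cells at the Tnnt2 limit were thus mostly below the Des limit, as the plot of the 2 genes in each cell shows.

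**Figure D1:**
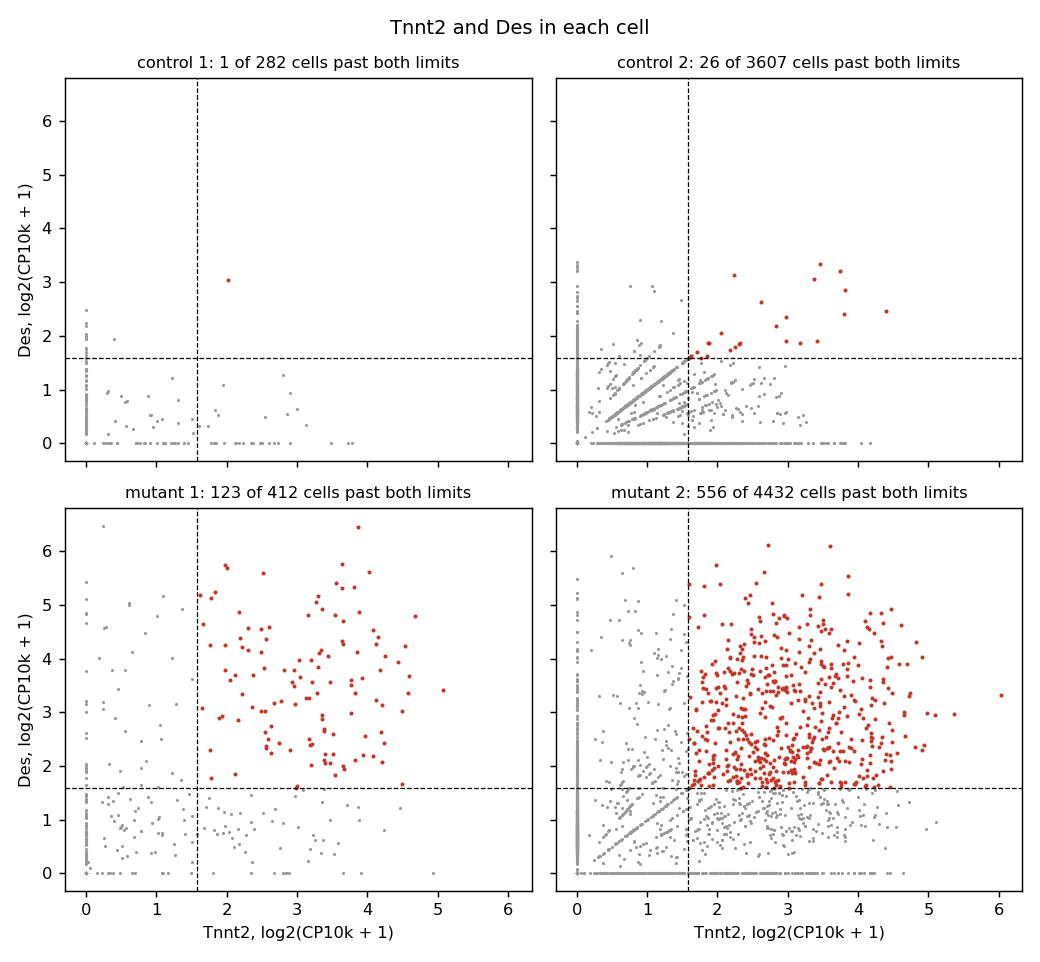
Tnnt2 (horizontal) and Des (vertical) in each passing cell of the 4 libraries, as log2(CP10k + 1), with dashed lines at the limit of 2 CP10k for each gene and the cells past both limits in red. The red field holds 123 and 556 cells in the mutants and 1 and 26 in the controls.

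Tnnt2 itself was not foreign to control mesothelium. Over control cells chosen by Upk3b alone, with no limit on the muscle genes, Tnnt2 stood at 155 and 156 CPM, Des at 22.4 and 24.6 and Actc1 at 0.783 and 1.12. In the Des/Tnnt2 cells Tnnt2 stood at 882 and 803 CPM and Des at 1472 and 889. The Myh11 cells, which were limited in Tnnt2 but not in Des, held Des at 633 and 144 CPM, below both sums of Des/Tnnt2 cells.

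Cells on either side of the limit looked alike in mutant 2. There the 155 members whose lower gene stood at 2 to 3 CP10k had Tagln at 1775 CPM, Actc1 at 294, Ramp1 at 167 and Msln at 39. The 284 cells just outside, with the lower gene at 1 to 2 CP10k, had 1688, 192, 162 and 29.5 CPM of the same genes. In mutant 1 the 20 cells just inside had Tagln at 4049.9 and Actc1 at 29.2 CPM, and the 33 just outside 2859 and 74.8. The limit therefore ran through a range of levels and not along an edge.

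The sum of the control cells past the limits held more of some muscle genes and more Upk3b, with wide differences between its cells. The 26 of control 2 held Myh11 at 2099.9 CPM (exact 95% Poisson interval for counting error 1972 to 2234), Acta2 at 5086 (4886 to 5292) and Actc1 at 1352 (1249.7 to 1460.2), each above both mutant sums of Des/Tnnt2 cells. Upk3b, a uroplakin of mesothelial cells, stood at 380.3 CPM there (327 to 439.7) against 5.61 and 6.04 in the mutant Des/Tnnt2 cells. Of the 26 cells, 8 had Myh11 at 3 CP10k or more and 15 under 1. With each cell thinned to 5000 UMIs, Tagln was seen in 78.3% of 23 of them and Actg2 in 43.5%, against 98.3 and 93.2% and 66.1 and 47.7% of the mutant Des/Tnnt2 cells. Upk3b was seen in 56.5%, against 12.8% of the Myh11 cells of control 2 and 4.24 and 2.03% of the mutant Des/Tnnt2 cells. Ccl2 was without a UMI in these 26 cells. These counts come from 1 library and have no replicate check.

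The 4 further label genes followed 2 patterns. Actc1, the cardiac actin (chromosome 2, 114047282 to 114053548, mm10), stood at 214 and 282 CPM in Des/Tnnt2 cells, 7.1 and 75.1 in Myh11 cells, 0 and 6.09 in Tcf21 cells and 0 and 0.88 in control mesothelium. Ramp1, a partner of the receptor for the peptide CGRP (chromosome 1, 91179822 to 91225196), stood at 146 and 155 CPM against 45.9 and 49.7 in Myh11 cells and 8.12 and 10.7 in control mesothelium. Both genes were thus highest in the Des/Tnnt2 cells, with no overlap between sums. Tagln, the actin-binding transgelin (chromosome 9, 45929619 to 45936058), stood at 3765 and 2606 CPM against 2502 and 2100.3 in Myh11 cells, and Actg2, the enteric smooth muscle actin (chromosome 6, 83512905 to 83536265), at 614 and 305 against 486 and 398. These smooth muscle genes lay at about the level of Myh11 cells, with the Actg2 sums overlapping. In control mesothelium Tagln stood at 98.8 and 133 CPM and Actg2 at 0 and 2.64. Myh11, the smooth muscle myosin heavy chain (chromosome 16, 14194535 to 14291372), was not part of the choice of Des/Tnnt2 cells and stood at 627 and 219.5 CPM there, below the 998 and 739 of the cells chosen for it. The 9.07 and 7.92 CPM of control mesothelium were held under 100 CPM by its own limit on Myh11.

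The start sites of Actc1, Myl7 and Tnnt2, genes of striated filaments, are shown because they hold letters by which muscle genes are often described, and were picked after the search. The CArG box is the site bound by serum response factor, searched by its usual pattern on both strands, and the M-CAT letters CATTCC, searched on both strands, are those bound by the Tead factors. Capitals mark these matches in the 250 bases before the RefSeq start (GRCm38.p6), 5′ to 3′ along the gene. For Actc1 the window is chr2:114052876-114053125 on the minus strand, which a longer gene model places within the gene. For Myl7, the atrial myosin light chain, it is chr11:5898783-5899032 on the minus strand. For Tnnt2 it is chr1:135836084-135836333 on the plus strand, the first of 2 listed starts.
Actc1: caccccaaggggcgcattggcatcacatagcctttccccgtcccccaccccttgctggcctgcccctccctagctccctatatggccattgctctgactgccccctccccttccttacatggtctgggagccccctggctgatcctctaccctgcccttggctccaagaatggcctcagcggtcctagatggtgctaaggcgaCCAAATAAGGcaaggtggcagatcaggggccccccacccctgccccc
Myl7: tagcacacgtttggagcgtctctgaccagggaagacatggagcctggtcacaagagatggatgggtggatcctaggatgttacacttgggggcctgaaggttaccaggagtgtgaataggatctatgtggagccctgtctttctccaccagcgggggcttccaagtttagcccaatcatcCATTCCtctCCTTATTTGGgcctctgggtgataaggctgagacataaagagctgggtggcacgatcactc
Tnnt2: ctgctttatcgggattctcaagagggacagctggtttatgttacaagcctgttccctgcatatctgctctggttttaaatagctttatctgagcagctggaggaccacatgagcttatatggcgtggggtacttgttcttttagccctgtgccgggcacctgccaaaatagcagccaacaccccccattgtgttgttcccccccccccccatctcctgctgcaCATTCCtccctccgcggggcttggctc
Actc1 held 1 CArG box, beginning 47 bases before the start. Myl7 held 1 CArG box at 61 bases and M-CAT letters at 70 bases before it, without overlap, and Tnnt2 M-CAT letters at 27 bases. A CArG box stood in 1.47% and M-CAT letters in 12.6% of the 32851 promoter windows of this length. RefSeq windows were found for 4 of the 6 label genes, and those of Des and Ramp1 held neither match, nor did the second Tnnt2 start. Of other genes searched, Myl9 held a CArG box, Acta2 and Upk3b held M-CAT letters, and Cnn1, Krt18 and Krt8 held neither. Matches thus also stood in Myl9 and Acta2, which did not pass the threshold against Myh11 cells. A match describes the letters only.

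Across genes, the Des/Tnnt2 cells differed from each of the 3 populations. Against Myh11 cells 756 of 12826 genes were higher (5.89%) and 461 lower (3.59%), in all 9.49%. Against Tcf21 cells 1763 of 12825 were higher (13.7%) and 841 lower (6.56%), in all 20.3%. Against control mesothelium 755 of 13242 were higher (5.7%) and 983 lower (7.42%), in all 13.1%. The gate genes and label genes were left out of these counts. All 3 comparisons share the sums of Des/Tnnt2 cells. The first 2 came from 1 fit of the mutant sums of Des/Tnnt2, Myh11 and Tcf21 cells, which share the spread. The spread of the comparison with Myh11 cells thus rests in part on the Tcf21 sums. The library was a block in that fit, since the sums came from the same mutant libraries, and 2 residual degrees of freedom were left. Without that block 163 genes passed against Myh11 cells and 1055 against Tcf21 cells, and DESeq2 passed 715 and 1702. For these 2 comparisons, fits without 1 mutant library had no block and added the 2 sums of control mesothelium. Those 2 control sums alone gave the spread, so a threshold missed in such a fit does not measure spread between mutant cells. Against control mesothelium, 3365 passed without the sum of mutant 1 and 1097 without that of control 1. With only the 2 populations fitted 1907 passed against Myh11 cells, and with the Upk3b limit at 5 CP10k 855 passed against control mesothelium, so the counts do not rank the populations. In that comparison genotype and population changed together and cannot be told apart.

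Most genes of the smooth muscle list were higher than in mesothelium, and 3 were lower than in Myh11 cells. The list held contractile genes and also Ednrb, a receptor, and Hhip, which binds hedgehog ligands. Of its 21 tested members 0 were higher and 3 lower than in Myh11 cells by edgeR, where 5.89% and 3.59% of all genes passed. Ednrb and Hhip were among the 3, so Synpo2 was the only filament gene of them. At an unadjusted p under 0.05 it was 1 and 7, and by DESeq2 0 and 3. The median log2 change of the 21 was -0.30, with 0.0089 over all genes. Against control mesothelium 18 of 21 were higher and 1, Hhip, was lower (median 1.88), where 5.7% and 7.42% of all genes were. These control cells had been chosen for low Tnnt2, Des and Myh11, which bears on this comparison. Acta2, the main smooth muscle actin, stood at 2542 and 1840.4 CPM, against 2441 and 3461 in Myh11 cells and 11 and 38.3 in control mesothelium. The first pair overlapped (-0.30 ± 0.38, adjusted p = 0.732) and the second lay far apart (6.46 ± 0.61, adjusted p = 0.000816). Cnn1, calponin, which binds actin and slows myosin, stood at 177 and 119.6 CPM against 137 and 148 in Myh11 cells (0.066 ± 0.19, adjusted p = 0.898) and 0 and 1.03 in control mesothelium (7.63 ± 0.48, adjusted p = 0.000208). Lmod1, which starts actin filaments, stood at 99.6 and 39.1 CPM against 65 and 65.2 in Myh11 cells (-0.051 ± 0.29, adjusted p = 0.961) and 9.55 and 6.45 in control mesothelium (3.24 ± 0.45, adjusted p = 0.00361). Pdlim3, which binds actinin at dense bodies, stood at 109 and 93.7 CPM against 121 and 162 in Myh11 cells (-0.44 ± 0.19, adjusted p = 0.218) and 64.9 and 54.7 in control mesothelium (0.86 ± 0.20, adjusted p = 0.0311). All 4 genes were higher than in control mesothelium, Pdlim3 by less than 2-fold, while none of them passed against Myh11 cells. Against control mesothelium, Pdlim3 missed the threshold without control 1 (adjusted p = 0.216) and without control 2 (adjusted p = 0.317).

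The 3 members of this list that were lower than in Myh11 cells were Ednrb, Hhip and Synpo2. Ednrb, the endothelin receptor type B, stood at 73.4 and 77.5 CPM against 692 and 812 (-3.26 ± 0.20, adjusted p = 7.77e-05), and every sum of Des/Tnnt2 cells lay below every sum of Myh11 cells. Hhip, which binds hedgehog ligands, stood at 426 and 219 CPM against 1268 and 755 in Myh11 cells (-1.63 ± 0.17, adjusted p = 0.000832) and 1504 and 1142 in control mesothelium (-1.97 ± 0.34, adjusted p = 0.00902), so that it was lower than in both. Synpo2, an actin-bundling protein, stood at 90.5 and 66.5 CPM against 179 and 155 (-1.06 ± 0.15, adjusted p = 0.00309). Myocd, the cofactor that drives smooth muscle genes, stood at 77.4 and 43 CPM against 101 and 135 in Myh11 cells (-0.9987 ± 0.29, adjusted p = 0.0673) and 6.68 and 7.48 in control mesothelium (3.12 ± 0.32, adjusted p = 0.00104). Against Myh11 cells, Synpo2 missed the threshold without mutant 2 (adjusted p = 0.0624).

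**Figure D2:**
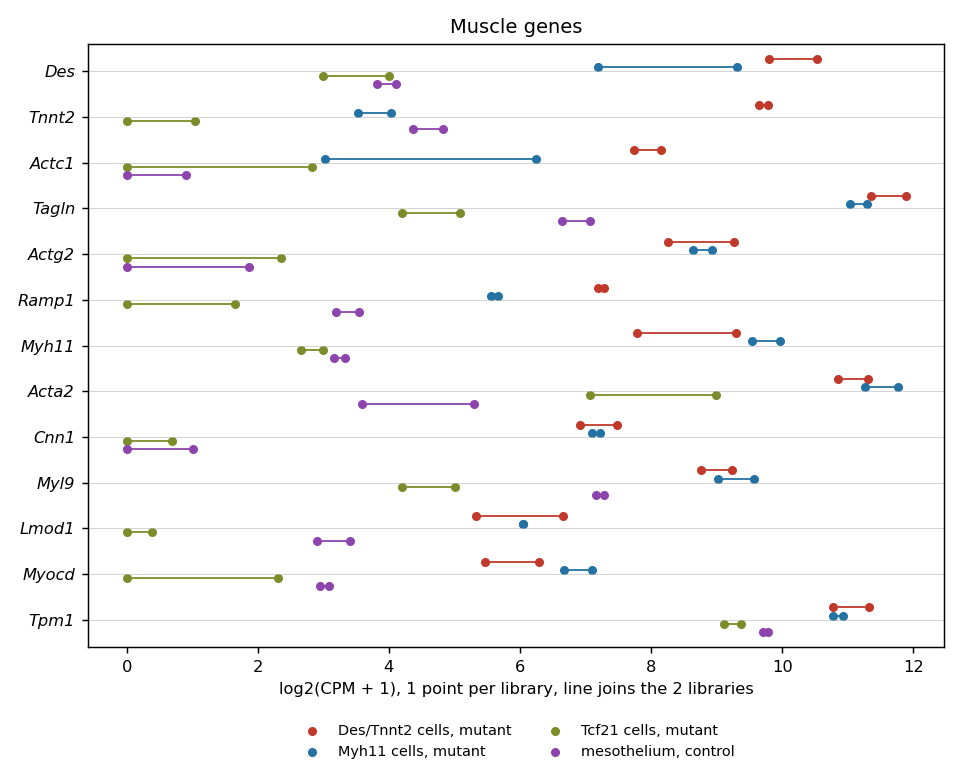
Levels of the gate genes, label genes and smooth muscle genes as log2(CPM + 1), 1 point per library, in Des/Tnnt2 cells (red), Myh11 cells (blue) and Tcf21 cells (olive) of mutants and in control mesothelium (purple). Acta2, Cnn1 and Actg2 of Des/Tnnt2 cells overlap with those of Myh11 cells, while Tnnt2, Actc1 and Ramp1 lie above them.

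Striated muscle genes were present in part and at low levels. Of 42 listed sarcomere genes 17 had enough counts to be tested against Myh11 cells, and 8 were higher and 1 lower by edgeR, and 4 and 1 by DESeq2, where 5.89% and 3.59% of all genes passed (median 2.83, or 2.38 with the 2 genes that had no UMI in Myh11 cells set to a floor of 3 counts over both sums). Members passed the filter partly because they were high in these cells, so the share is not one of the whole list. Against control mesothelium 7 of 19 were higher and 1 was lower by edgeR, and 5 and 2 by DESeq2, where 5.7% and 7.42% of all genes passed. Tnni2, the inhibitory troponin of fast skeletal fibres, stood at 14.3 and 15.2 CPM against 1.64 and 2.37 in Myh11 cells (2.83 ± 0.39, adjusted p = 0.00262) and 0 and 2.49 in control mesothelium (3.13 ± 0.58, adjusted p = 0.0117). Acta1, the skeletal actin, stood at 4.75 and 3.39 CPM against 0.547 and 0.215 in Myh11 cells and 0.477 and 0.147 in control mesothelium (adjusted p = 0.0294 and 0.0104). Tcap, which caps titin at the Z-disc, stood at 2.07 and 4.34 CPM against 0 and 0.215 in Myh11 cells and 0 and 0.147 in control mesothelium (adjusted p = 0.0166 and 0.0202). The Acta1 and Tcap levels of the other populations rest on 1 or 2 UMIs, so no fold is given. These genes were higher than in both, at levels under 20 CPM. Nebl, a thin filament protein, was the one lower member, with 3.41 and 3.53 CPM against 20.8 and 15.7 in Myh11 cells (-2.30 ± 0.52, adjusted p = 0.0259), 384 and 75.7 in Tcf21 cells (-5.48 ± 0.48, adjusted p = 0.000131) and 10.5 and 7.04 in control mesothelium. Smyd1, a methyltransferase needed for heart muscle, was the one lower than in control mesothelium, with 0.366 and 0.204 CPM against 15.8 and 11.4 (-5.46 ± 0.49, adjusted p = 0.000726). Against Myh11 cells, Tnni2 missed the threshold without mutant 2 (adjusted p = 0.0528), Acta1 missed the threshold by DESeq2 (adjusted p = 0.185) and without mutant 1 (adjusted p = 0.138) and Tcap missed the threshold by DESeq2 (adjusted p = 0.152) and without mutant 1 (adjusted p = 0.0749). Against control mesothelium, Tnni2 missed the threshold by DESeq2 (adjusted p = 0.163), Acta1 missed the threshold without control 2 (adjusted p = 0.0877) and Tcap missed the threshold without control 2 (adjusted p = 0.0558) and without mutant 2 (adjusted p = 0.0712).

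Myl7 stood apart from the others. It was at 75.3 and 161 CPM in Des/Tnnt2 cells and 0.547 and 12 in Myh11 cells (4.16 ± 0.35, adjusted p = 0.000293), and at 96.9 and 94.6 in control mesothelium (0.43 ± 0.38, adjusted p = 0.535). The mutant sums lay on both sides of the control mesothelium. Xirp2, an actin-binding protein of striated muscle, was at 14.5 and 5.7 CPM and had no UMI in any of the other 6 sums. Its UMIs came from 2 cells of mutant 1, with 89.1% in 1 of them, and from 6 cells of mutant 2, with 73.8% in 1. Nppa, the atrial natriuretic peptide, was at 12.2 and 8.08 CPM against 0 and 1.29 in Myh11 cells (3.41 ± 0.66, adjusted p = 0.0163) and 0.477 and 0.293 in control mesothelium (adjusted p = 0.00143), from 15 and 39 cells. Of 18 cardiomyocyte markers, Myh6, Nkx2-5 and Ckmt2 had no UMI in the Des/Tnnt2 cells of either library, while 14 and 15 of the list had UMIs. The whole list summed to 140.4 and 243 CPM, most of it Myl7, against 12 and 29 in Myh11 cells and 122 and 121 in control mesothelium. Of 16 skeletal muscle markers, Myod1, Myf6, Pax7 and Myh3 had no UMI in either library, while 8 and 11 of the list had UMIs and summed to 40.0 and 35.4 CPM, against 10.9 and 25.4 in Myh11 cells. Against Myh11 cells, Nppa missed the threshold by DESeq2 (adjusted p = 0.956) and without mutant 1 (adjusted p = 0.0554).

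Genes of the scaffold that ties filaments to the cell edge were higher in part. Of 16 tested genes of intermediate filaments, small heat shock proteins and costameres, 8 were higher than in Myh11 cells, where 5.89% of all genes were (median 0.88), while 5 of 17 were higher and 1 lower than in control mesothelium, where 5.7% and 7.42% were (median 0.088). Cryab, a chaperone that protects desmin filaments, stood at 288 and 407 CPM against 82 and 72.9 in Myh11 cells (2.22 ± 0.20, adjusted p = 0.000395) and 277 and 362 in control mesothelium (0.22 ± 0.30, adjusted p = 0.706). Hspb1, a related chaperone, stood at 792 and 1286 CPM against 286 and 299.6 (1.85 ± 0.17, adjusted p = 0.000503) and 996 and 1301. Nes, the intermediate filament nestin, behaved differently, with 329.5 and 171 CPM against 278 and 124 in Myh11 cells (0.40 ± 0.26, adjusted p = 0.439) and 16.7 and 17.6 in control mesothelium (3.92 ± 0.33, adjusted p = 0.000582). Hspb2, another of these chaperones, followed Cryab, with 55 and 46.4 CPM against 18 and 13.5 (1.75 ± 0.19, adjusted p = 0.000902) and 36.8 and 52.7 (0.24 ± 0.24, adjusted p = 0.589).

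Of calcium handling genes, 2 of 11 were higher than in Myh11 cells by edgeR, Ryr2 and Slc8a1, where 5.89% of all genes were. By DESeq2 1 was higher. Ryr2, the calcium release channel of heart muscle, stood at 30.7 and 16.6 CPM against 5.47 and 1.29 (3.08 ± 0.34, adjusted p = 0.000963) and at 16.7 and 11.7 in control mesothelium (0.84 ± 0.32, adjusted p = 0.141). Jph2, which holds that channel near the cell membrane, stood at 19 and 10.7 CPM against 0 and 0.147 in control mesothelium (adjusted p = 0.000949, from 1 UMI there) and 7.65 and 14.8 in Myh11 cells (0.21 ± 0.43, adjusted p = 0.846). The receptor genes that pair with Ramp1 did not follow it. Calcrl, the receptor itself, stood at 6.7 and 5.16 CPM against 31.2 and 17.4 in Myh11 cells (-1.92 ± 0.26, adjusted p = 0.00253), and Ramp2, the partner that makes it an adrenomedullin receptor, at 10.2 and 27.1 against 58.5 and 57 (-1.62 ± 0.29, adjusted p = 0.00921). Both were lower than in Myh11 cells, where Ramp1 was lower than in the Des/Tnnt2 cells.

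Muscle and mesenchyme transcription factors moved differently. The shares of all genes beside them were 5.89% higher and 3.59% lower than in Myh11 cells. Against control mesothelium they were 5.7% and 7.42%. Of 15 tested factors of muscle, Gata4 and Gata6 were higher and Tbx5 lower than in Myh11 cells by edgeR, with 0 higher and 1 lower by DESeq2. Gata6 stood at 289 and 256 CPM against 141 and 59.8 in Myh11 cells (1.58 ± 0.36, adjusted p = 0.0276) and 341 and 338 in control mesothelium (-0.23 ± 0.22, adjusted p = 0.568), and Gata4 at 15.8 and 18.6 against 10.4 and 4.52 (1.44 ± 0.36, adjusted p = 0.0384) and 25.3 and 29.9. Tbx5, a factor of lung mesenchyme and heart, stood at 63 and 55 CPM against 222 and 214 (-1.84 ± 0.14, adjusted p = 0.000227) and 39.6 and 34.5 in control mesothelium (0.77 ± 0.20, adjusted p = 0.0436). Of 21 factors of lung mesenchyme 10 were lower than in Myh11 cells (median -0.92), and 7 of 21 were higher than in control mesothelium (median 0.77). Among them Snai2, which loosens epithelial contacts, stood at 36.8 and 53.1 CPM between control mesothelium at 10.5 and 18.5 (1.66 ± 0.35, adjusted p = 0.0188) and Myh11 cells at 93.5 and 83.4 (-0.92 ± 0.20, adjusted p = 0.0192), and Zeb2, a related repressor, at 212 and 159 between 96.9 and 104 (0.96 ± 0.22, adjusted p = 0.0275) and 702 and 455 (-1.57 ± 0.14, adjusted p = 0.00042). Foxp1, a forkhead factor, stood at 302 and 240.0 CPM with 242 and 204 in Myh11 cells (0.32 ± 0.13, adjusted p = 0.197) and 313 and 309 in control mesothelium (-0.11 ± 0.22, adjusted p = 0.808), but 45.4 and 35.8 in Tcf21 cells (2.73 ± 0.17, adjusted p = 3.09e-05). Tbx3, a T-box factor of lung mesenchyme, was among the 10 largest falls against Myh11 cells, with 15.5 and 19.3 CPM against 149 and 200.2 (-3.28 ± 0.15, adjusted p = 1.44e-05). Against Myh11 cells, Gata6 missed the threshold by DESeq2 (adjusted p = 0.0873), Gata4 missed the threshold by DESeq2 (adjusted p = 0.185) and without mutant 2 (adjusted p = 0.54) and Snai2 missed the threshold without mutant 1 (adjusted p = 0.411). Against control mesothelium, Tbx5 missed the threshold by DESeq2 (adjusted p = 0.0707) and without control 1 (adjusted p = 0.243) and without control 2 (adjusted p = 0.325), Snai2 missed the threshold without control 1 (adjusted p = 0.0546) and Zeb2 missed the threshold without control 1 (adjusted p = 0.344) and without control 2 (adjusted p = 0.198).

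Genes of mesothelium were among those that set Des/Tnnt2 cells apart from Myh11 cells. Of 22 tested mesothelial genes 13 were higher and 0 lower than in Myh11 cells by edgeR, where 5.89% and 3.59% of all genes were. At an unadjusted p under 0.05 it was 15 and 0, and by DESeq2 9 and 0 (median log2 change 1.97). The list has 30 genes, and members passed the filter partly because they were high in these cells. Against control mesothelium 22 of 28 were lower and 1, C3, was higher (median -4.30), where 7.42% and 5.7% of all genes were. C3, a complement protein, stood at 18.2 and 6.92 CPM against 0.477 and 1.91 (3.08 ± 0.62, adjusted p = 0.0162). Part of the list thus lay between the 2 populations, and members are given by 3 levels. Clu, Chrm2, Igfbp2, Igfbp6 and Col6a6 are given with them but are not on the list.

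Some genes did not differ from control mesothelium by the test, among them Clu and Chrm2 from outside the list. Msln, mesothelin, a surface protein of mesothelial cells (chromosome 17, 25748613 to 25754378), was at 82.9 and 61.8 CPM in Des/Tnnt2 cells and 109 and 98.3 in control mesothelium (-0.43 ± 0.21, adjusted p = 0.244), against 1.64 and 3.66 in Myh11 cells (4.54 ± 0.31, adjusted p = 9.24e-05) and 0 and 0.152 in Tcf21 cells (adjusted p = 3.2e-05, from 1 UMI there). Among tested genes of at least 50 CPM it had the largest rise against Myh11 cells. Krt18, an epithelial keratin (chromosome 15, 102028180 to 102032027), was at 81.9 and 101 CPM against 45.3 and 61.6 in control mesothelium (0.85 ± 0.26, adjusted p = 0.0765) and 17.5 and 3.87 in Myh11 cells (3.48 ± 0.43, adjusted p = 0.00167). Its partner Krt8 was at 52.2 and 46.9 CPM with 51.1 and 43.7 in control mesothelium (0.16 ± 0.20, adjusted p = 0.673), and its difference from Myh11 cells, at 26.8 and 1.51 CPM, missed the threshold (2.44 ± 0.64, adjusted p = 0.054). Clu, a secreted chaperone, was at 323 and 385 CPM against 299.8 and 294 in control mesothelium (0.36 ± 0.25, adjusted p = 0.422) and 126 and 74.8 in Myh11 cells (1.92 ± 0.22, adjusted p = 0.00111). Chrm2, a muscarinic receptor, was at 229 and 138 CPM against 428 and 297 in control mesothelium (-0.90 ± 0.29, adjusted p = 0.0868) and 62.9 and 16.8 in Myh11 cells (2.48 ± 0.25, adjusted p = 0.000669). For these 5 genes the difference from control mesothelium missed the threshold, which does not show that the levels were alike. The top 10% of Des/Tnnt2 cells held 61.8 and 78.5% of the Msln UMIs, against 47.8 and 49.0% in control mesothelium. For Krt18 it was 70.7 and 69.8% against 36.8 and 34.8%, with 18.2% in 1 Des/Tnnt2 cell of each library.

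A second set was lower than in control mesothelium and above Myh11 cells. Wt1, the transcription factor whose regulatory DNA drives the Cre, was at 36.9 and 36.6 CPM, between 151.3 and 154 in control mesothelium (-1.96 ± 0.21, adjusted p = 0.00126) and 9.29 and 3.87 in Myh11 cells (2.73 ± 0.33, adjusted p = 0.00144). Myrf, the targeted gene, was at 27.4 and 14.7 CPM between 128 and 94.9 (-2.33 ± 0.30, adjusted p = 0.00266) and 9.84 and 3.23 (1.87 ± 0.29, adjusted p = 0.00439). Reads at the 3' end can lie outside the deleted part of the gene, so this level does not check the deletion. Krt7, a simple-epithelium keratin, was at 36.2 and 37.4 CPM between 289 and 309 (-2.93 ± 0.23, adjusted p = 0.000484) and 2.73 and 0.43 (5.06 ± 0.43, adjusted p = 0.000317). Aldh1a2, which makes retinoic acid, was at 207 and 159.5 CPM between 1183 and 1016 (-2.50 ± 0.26, adjusted p = 0.00119) and 145 and 66.9 (0.93 ± 0.21, adjusted p = 0.0245). Igfbp2 and Igfbp6, which bind insulin-like growth factors, were also in this set, Igfbp2 at 139 and 86.9 CPM between 346 and 308 (-1.46 ± 0.25, adjusted p = 0.00936) and 11.5 and 14 (3.05 ± 0.24, adjusted p = 0.000247). Igfbp6 was at 44.9 and 60.0 CPM between 408 and 489.8 (-2.99 ± 0.30, adjusted p = 0.000972) and 3.83 and 2.58 (4.23 ± 0.28, adjusted p = 9.24e-05). Gpm6a, a membrane glycoprotein, was at 22.3 and 19.5 CPM between 469 and 440.5 (-4.35 ± 0.25, adjusted p = 0.000186) and 3.83 and 1.51 (3.21 ± 0.38, adjusted p = 0.00188), and Col6a6, a collagen VI chain, at 75.8 and 38.7 between 341 and 256 (-2.31 ± 0.32, adjusted p = 0.0036) and 7.65 and 2.37 (3.70 ± 0.26, adjusted p = 0.000113). In every one of these genes the 2 Des/Tnnt2 sums lay between those of the other populations. Against Myh11 cells, Aldh1a2 missed the threshold by DESeq2 (adjusted p = 0.186) and without mutant 1 (adjusted p = 0.0527) and without mutant 2 (adjusted p = 0.47). Against control mesothelium, Igfbp2 missed the threshold without control 1 (adjusted p = 0.0626).

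The last set was close to absent. Lrrn4, a leucine-rich membrane protein of mesothelium, was at 0.731 and 1.97 CPM against 282 and 206 in control mesothelium (-7.24 ± 0.45, adjusted p = 0.000203). Upk1b, a uroplakin, was at 2.68 and 2.38 CPM against 304 and 286 (-6.77 ± 0.27, adjusted p = 7.89e-05), and Krt19 at 8.78 and 9.98 against 325 and 343 (-5.05 ± 0.27, adjusted p = 0.000145). Bnc1, a zinc finger factor of mesothelium, was at 0.731 and 1.154 CPM against 86.4 and 62 (-6.08 ± 0.34, adjusted p = 0.000185), and Cldn15, a tight junction claudin, at 0.61 and 1.63 against 108 and 92.3 (-6.22 ± 0.39, adjusted p = 0.000208). Muc16, a large surface mucin, was at 0 and 0.0679 CPM, from 1 UMI, against 60.1 and 46.6 (adjusted p = 9.58e-05), and Car9, a carbonic anhydrase, at 0.488 and 0.136 against 91.2 and 106 (-8.36 ± 0.40, adjusted p = 9.09e-05). Upk3b, which chose the control mesothelium and is therefore untested there, was at 5.61 and 6.04 CPM, with 0.547 and 0.43 in Myh11 cells (adjusted p = 0.00702, from 3 UMIs there). Bst1, Stk26 and Tmem151a, further mesothelial genes, stood at 0.61 and 0.882, 2.32 and 1.97 and 3.05 and 2.31 CPM, against 85.4 and 91.1 (-6.69 ± 0.31, adjusted p = 8.04e-05), 138 and 122 (-5.83 ± 0.25, adjusted p = 7.89e-05) and 123 and 114 (-5.39 ± 0.25, adjusted p = 8.04e-05). Against Myh11 cells, Upk3b missed the threshold by DESeq2 (adjusted p = 0.0543) and without mutant 2 (adjusted p = 0.0784).

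**Figure D3:**
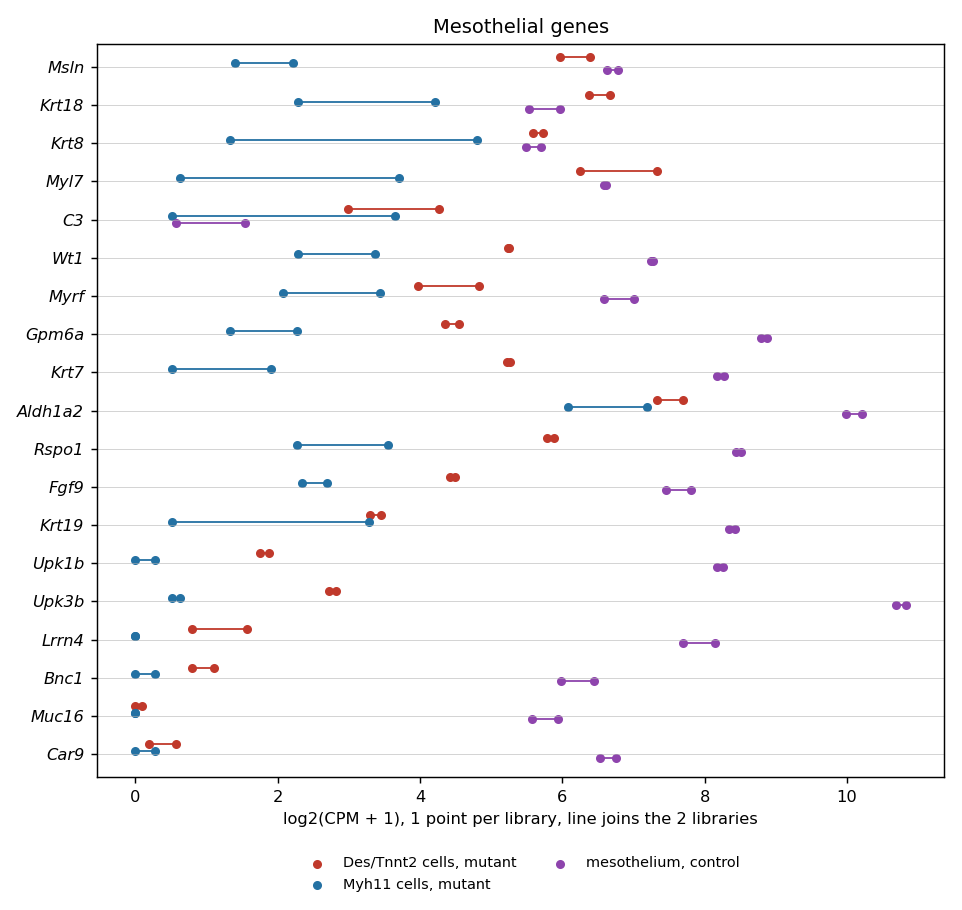
Levels of 19 genes as log2(CPM + 1), 1 point per library, in Des/Tnnt2 cells (red) and Myh11 cells (blue) of mutants and in control mesothelium (purple). Myl7, Rspo1 and Fgf9 come from other lists than that of mesothelial genes. From Msln to Myl7 red lies near purple, in C3 above it, from Wt1 to Fgf9 between purple and blue, and from Krt19 down near blue.

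Some mesothelial transcripts were found in barcodes that had passed the Tnnt2 and Des limits. Whether the same barcodes also held other muscle transcripts was not counted. To compare cells of unequal depth, each was thinned to 5000 UMIs, which left out 5 and 13 Des/Tnnt2 cells, and a share then counts cells with at least 1 UMI. Any of Msln, Krt7, Krt8, Krt18 and Wt1 was seen in 43.2 and 46.4% of Des/Tnnt2 cells (87 and 75.4% unthinned), in 12.8 and 3.66% of Myh11 cells, in 0 of 10 and 1.5% of Tcf21 cells and in 94.5 and 92.9% of control mesothelium. Tcf21 cells had medians of 27617.5 and 14534 UMIs. The surfactant gene Sftpc was seen in 12.7 and 3.87% of Des/Tnnt2 cells and in 19.1 and 4.03% of Myh11 cells. In Tcf21 cells it was seen in 0 of 10 and 4.26%. The part of free RNA in these shares was not tested. Any of Upk3b, Lrrn4, Muc16 and Bnc1 was seen in 5.93 and 2.76% of Des/Tnnt2 cells, and in every cell of control mesothelium, which Upk3b had chosen. The doublet caller's own threshold marked 7 of 8733 cells and was not used. Median doublet scores of the Des/Tnnt2 cells were 0.0547 and 0.0673 against 0.042 and 0.0435 in their libraries, and removing the highest scores took 0 and 18 of them (3.24% in mutant 2, against 3.54% of all its cells).

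Some genes were higher than in both Myh11 cells and control mesothelium. Ccl2, a chemokine that draws monocytes, stood at 78.5 and 334 CPM against 26.8 and 21.9 in Myh11 cells (3.003 ± 0.45, adjusted p = 0.00385) and 0 and 3.37 in control mesothelium (6.56 ± 0.98, adjusted p = 0.00505), and Ccl7, a related chemokine, at 25.1 and 67 against 8.74 and 8.17 (2.55 ± 0.36, adjusted p = 0.00298) and 0.955 and 3.67 (4.13 ± 0.66, adjusted p = 0.00663). The 2 mutant libraries differed for both, and in mutant 2 the top 10% of cells held 85.1% of the Ccl2 UMIs. S100a6, a calcium-binding protein, stood at 990.2 and 992 CPM against 274 and 74.6 (2.83 ± 0.36, adjusted p = 0.00175) and 221 and 317 (1.97 ± 0.29, adjusted p = 0.00519), and was nearly level between the mutants. Lgals7, a galectin, stood at 54.7 and 113 CPM against 2.73 and 19.1 (2.95 ± 0.30, adjusted p = 0.00075) and 13.8 and 17.9 (2.49 ± 0.42, adjusted p = 0.00795). Others passed against mesothelium and missed the threshold against Myh11 cells. Rgs2, a regulator of G protein signals, stood at 195 and 142 CPM against 2.86 and 7.04 (4.97 ± 0.37, adjusted p = 0.000322) and 425 and 271 in Myh11 cells (-0.97 ± 0.34, adjusted p = 0.133), and Crispld2, a secreted protein of lung mesenchyme, at 143 and 51.4 against 3.82 and 2.2 (5.22 ± 0.56, adjusted p = 0.00128) and 91.8 and 37.6 (0.60 ± 0.18, adjusted p = 0.0792). Serpine2, a protease inhibitor, stood at 235 and 184 CPM, above 1.43 and 18.9 in mesothelium (4.18 ± 0.67, adjusted p = 0.00663) and below 467 and 507 in Myh11 cells (-1.20 ± 0.20, adjusted p = 0.00598). Ankrd1, a target of Yap in muscle, stood at 82.2 and 19.1 CPM with no UMI in control mesothelium (adjusted p = 0.00557) and 80.9 and 2.58 in Myh11 cells (0.96 ± 0.46, adjusted p = 0.269). Its UMIs were held by few cells, with 93.2% of those in the Myh11 cells of mutant 1 in 1 cell and 95.5% of those in the Des/Tnnt2 cells of mutant 1 in the top 10% of cells. Against Myh11 cells, Ccl7 missed the threshold without mutant 2 (adjusted p = 0.081) and Serpine2 missed the threshold without mutant 1 (adjusted p = 0.239) and without mutant 2 (adjusted p = 0.431). Against control mesothelium, S100a6 missed the threshold without control 1 (adjusted p = 0.0946).

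Several ligands of mesothelium lay in between as well. Of 24 tested ligands 9 were lower and 7 higher than in control mesothelium, where 7.42% and 5.7% of all genes were. Of 23 against Myh11 cells 11 were higher and 4 lower, where 5.89% and 3.59% of all genes were. Fgf9, a growth factor for lung mesenchyme, stood at 21.6 and 20.4 CPM between 223 and 176 in control mesothelium (-3.15 ± 0.23, adjusted p = 0.00032) and 5.47 and 4.09 in Myh11 cells (2.23 ± 0.29, adjusted p = 0.00311). Rspo1, which strengthens Wnt signals, stood at 54.1 and 57.8 CPM between 363 and 345 (-2.56 ± 0.23, adjusted p = 0.000769) and 3.83 and 10.8 (2.83 ± 0.30, adjusted p = 0.000832). Tgfb3, a TGF-beta ligand, stood at 190.0 and 132 CPM against 545 and 420.4 in control mesothelium (-1.4998 ± 0.26, adjusted p = 0.00882) and 133 and 67.5 in Myh11 cells (0.79 ± 0.17, adjusted p = 0.0182), which it exceeded within each library though the sums overlapped. Pdgfa, the ligand of Pdgfra, stood at 79.1 and 69.6 CPM between 203 and 173 (-1.25 ± 0.21, adjusted p = 0.00803) and 35.5 and 29.9 (1.24 ± 0.16, adjusted p = 0.00219). Wnt5a went the other way, at 9.75 and 4.75 CPM against 50.8 and 93.3 in Myh11 cells (-3.47 ± 0.50, adjusted p = 0.00311) and 2.39 and 6.31 in control mesothelium (0.61 ± 0.50, adjusted p = 0.498). Against Myh11 cells, Tgfb3 missed the threshold by DESeq2 (adjusted p = 0.0589) and without mutant 1 (adjusted p = 0.0954) and without mutant 2 (adjusted p = 0.414). Against control mesothelium, Tgfb3 missed the threshold without control 1 (adjusted p = 0.0935) and Pdgfa missed the threshold without control 1 (adjusted p = 0.0886).

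Basement membrane genes were often below mesothelium and above Myh11 cells. Beside the counts here, 7.42% of all genes were lower and 5.7% higher than in control mesothelium. Against Myh11 cells 5.89% of all genes were higher and 3.59% lower. Of 24 tested genes 11 were lower and 3 higher than in control mesothelium, and of 25 against Myh11 cells 8 were higher and 4 lower. Frem2, part of an extracellular complex under epithelia, stood at 91.3 and 58.5 CPM between 856 and 736 in control mesothelium (-3.33 ± 0.29, adjusted p = 0.000597) and 32.2 and 23.2 in Myh11 cells (1.46 ± 0.18, adjusted p = 0.00152). Its partner Fras1 stood at 86.8 and 64.4 CPM between 288 and 249.7 (-1.75 ± 0.23, adjusted p = 0.00293) and 9.29 and 8.17 (3.09 ± 0.27, adjusted p = 0.00038). Col4a4, a collagen of specialised basement membranes, stood at 370.0 and 166 CPM between 1175 and 931 (-1.91 ± 0.36, adjusted p = 0.0134) and 146 and 33.3 (1.86 ± 0.22, adjusted p = 0.00123). Lama5, a laminin chain of epithelia, stood at 137 and 97.2 CPM between 315 and 287 (-1.28 ± 0.23, adjusted p = 0.011) and 45.4 and 24.7 (1.84 ± 0.17, adjusted p = 0.000395). Of 25 genes of the fibrillar and elastic matrix 5 were higher and 1 lower than in Myh11 cells, and of 24 7 were higher and 2 lower than in control mesothelium. Col1a1, the main fibrillar collagen, stood at 2674 and 2223 CPM against 1633 and 1137 in Myh11 cells (0.88 ± 0.10, adjusted p = 0.00102) and 2911 and 2628 in control mesothelium (-0.09 ± 0.29, adjusted p = 0.887), and Vcan, a large proteoglycan, at 171 and 139 against 563 and 389.7 (-1.55 ± 0.17, adjusted p = 0.000865) and 26.3 and 25.4 (2.67 ± 0.22, adjusted p = 0.000543). Fbln2, a fibulin, stood at 505 and 201 CPM against 121 and 17.2 (2.77 ± 0.31, adjusted p = 0.00102) and 376 and 374 (-0.032 ± 0.37, adjusted p = 0.972). Against Myh11 cells, Col1a1 missed the threshold without mutant 1 (adjusted p = 0.337) and without mutant 2 (adjusted p = 0.371). Against control mesothelium, Col4a4 missed the threshold without control 1 (adjusted p = 0.0532) and Lama5 missed the threshold without control 1 (adjusted p = 0.101) and without control 2 (adjusted p = 0.0774).

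Several readouts of hedgehog and Wnt signalling were lower than in Myh11 cells. Among all genes 3.59% were lower and 5.89% higher than in Myh11 cells, and 7.42% lower and 5.7% higher than in control mesothelium. Of 13 hedgehog genes 4 were lower and 1, Cdon, higher than in Myh11 cells, and 5 of 13 were lower and 0 higher than in control mesothelium by edgeR (at an unadjusted p under 0.05, 7 and 1, and by DESeq2 5 and 0). Ptch1, the receptor that hedgehog signals induce, stood at 213 and 135 CPM against 557 and 323 in Myh11 cells (-1.28 ± 0.14, adjusted p = 0.000904) and 544 and 388 in control mesothelium (-1.34 ± 0.28, adjusted p = 0.0194). Cdon, a coreceptor of hedgehog, stood at 64.5 and 42.8 CPM against 17.5 and 13.1 (1.83 ± 0.20, adjusted p = 0.000963) and 93.6 and 72.6 (-0.55 ± 0.24, adjusted p = 0.194). Of 16 Wnt response genes 5 were lower and 0 higher than in Myh11 cells by edgeR (at an unadjusted p under 0.05, 8 and 4, and by DESeq2 4 and 0). Lef1, a Wnt effector, stood at 4.39 and 5.77 CPM against 65.6 and 68 (-3.65 ± 0.20, adjusted p = 4.1e-05). Lgr6, a receptor for Rspo ligands, stood at 56.1 and 26.9 CPM against 65 and 74 in Myh11 cells (-0.83 ± 0.27, adjusted p = 0.106) and 0 and 0.587 in control mesothelium (6.55 ± 0.61, adjusted p = 0.000815). Pdgfra, a growth factor receptor of lung mesenchyme, stood at 35 and 27.2 CPM against 336 and 246 in Myh11 cells (-3.17 ± 0.15, adjusted p = 1.44e-05) and 6.21 and 12.3 in control mesothelium (1.70 ± 0.32, adjusted p = 0.0123). Crh and Smpx were among the largest falls against Myh11 cells, Crh, a peptide hormone, with 1.46 and 2.17 CPM against 82 and 192 (-6.202 ± 0.24, adjusted p = 7.96e-06), and Smpx, a small muscle protein, with 0.366 and 2.65 against 66.1 and 205 (-6.44 ± 0.28, adjusted p = 1.44e-05). Entpd1, an enzyme that breaks down extracellular ATP, stood at 2.19 and 2.99 CPM against 75.4 and 123 (-5.22 ± 0.23, adjusted p = 1.44e-05), and Robo2, a receptor for Slit ligands, at 27.5 and 19.6 against 231 and 232 (-3.29 ± 0.22, adjusted p = 9.24e-05) and 0.477 and 6.45 in control mesothelium (2.45 ± 0.54, adjusted p = 0.0242). Against control mesothelium, Ptch1 missed the threshold without control 1 (adjusted p = 0.196) and without control 2 (adjusted p = 0.0523) and Robo2 missed the threshold by DESeq2 (adjusted p = 0.218).

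Genes of the remaining pathways changed in both directions against control mesothelium. The shares of all genes were 5.89% higher and 3.59% lower against Myh11 cells and 5.7% and 7.42% against control mesothelium. Of 15 TGF-beta response genes 5 were higher and 2 lower than in control mesothelium, and 1 higher and 2 lower than in Myh11 cells. Tgfbi, a matrix protein that TGF-beta induces, stood at 207 and 137 CPM between 41.5 and 53.8 in control mesothelium (1.90 ± 0.26, adjusted p = 0.0036) and 616 and 606 in Myh11 cells (-1.81 ± 0.20, adjusted p = 0.000933). Of 16 Yap and Tead targets 5 were higher and 5 lower than in control mesothelium. Amotl2, a feedback inhibitor of Yap, stood at 52.9 and 54 CPM against 228 and 188 (-1.86 ± 0.22, adjusted p = 0.00202), whereas Axl, a receptor kinase, stood at 88.7 and 59 against 34.8 and 32.6 (1.21 ± 0.23, adjusted p = 0.0132) and 56.3 and 27.1 in Myh11 cells (0.94 ± 0.19, adjusted p = 0.0137). Of 12 retinoic acid genes 3 were higher than in Myh11 cells by edgeR, Aldh1a2, Crabp2 and Rdh10, and 1 by DESeq2. Crabp2, which carries retinoic acid to the nucleus, stood at 8.05 and 24.9 CPM against 0.547 and 4.09 (2.77 ± 0.39, adjusted p = 0.00301) and 0 and 1.17 in control mesothelium (4.37 ± 0.86, adjusted p = 0.0152). Of 18 junction and polarity genes 6 were lower and 3 higher than in control mesothelium. Pard6b, which sets cell polarity, stood at 7.19 and 5.36 CPM against 60.6 and 58.1 (-3.16 ± 0.23, adjusted p = 0.000302). Of 9 Notch genes 1 was lower than in Myh11 cells, Notch3, a receptor of mural cells, at 8.53 and 7.53 CPM against 25.1 and 18.9 (-1.38 ± 0.22, adjusted p = 0.0054). Against Myh11 cells, Axl missed the threshold by DESeq2 (adjusted p = 0.0614) and without mutant 2 (adjusted p = 0.16) and Crabp2 missed the threshold without mutant 2 (adjusted p = 0.107). Against control mesothelium, Axl missed the threshold without control 1 (adjusted p = 0.0779) and without control 2 (adjusted p = 0.077).

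Against Tcf21 cells many smooth muscle and mesothelial genes were higher. Of 21 tested genes of the smooth muscle list 15 were higher and 2 lower than in Tcf21 cells. Of 22 tested mesothelial genes 16 were higher and 1 lower. Among all genes 13.7% were higher and 6.56% lower. Tcf21 cells had been chosen for low Tnnt2, Des and Myh11, which bears on the smooth muscle count. Mesothelial genes passed the filter partly because they were high in Des/Tnnt2 cells, and 2 of them had no UMI in Tcf21 cells. Among the largest falls, Ccl11, a chemokine of fibroblasts, stood at 0.61 and 0.272 CPM against 69.8 and 46.8 (-7.09 ± 0.34, adjusted p = 1.38e-05). Meox2, a homeobox factor, stood at 4.63 and 5.7 CPM against 258 and 92.6 (-4.74 ± 0.36, adjusted p = 6.72e-05), and Col13a1, a membrane collagen of lung fibroblasts, at 4.88 and 12.3 against 391 and 109.5 (-4.42 ± 0.57, adjusted p = 0.000814). The Tcf21 sum of mutant 1, from 10 cells, was the higher of the 2 for all 3 genes.

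Of 30 replication and mitosis genes 0 passed against Myh11 cells by edgeR (at an unadjusted p under 0.05, 1 higher and 2 lower, and by DESeq2 0 and 0), with a median of -0.17, and against control mesothelium 1, Mcm3, was higher. Among all genes 9.49% passed against Myh11 cells, and 5.7% were higher than in control mesothelium. Mcm4, a subunit of the replication helicase, stood at 78.9 and 84.2 CPM, 89.1 and 98.9 in Myh11 cells (-0.17 ± 0.18, adjusted p = 0.679), 230.3 and 149 in Tcf21 cells (-1.12 ± 0.20, adjusted p = 0.00402) and 65.9 and 59.7 in control mesothelium (0.48 ± 0.21, adjusted p = 0.197).

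**Figure D4:**
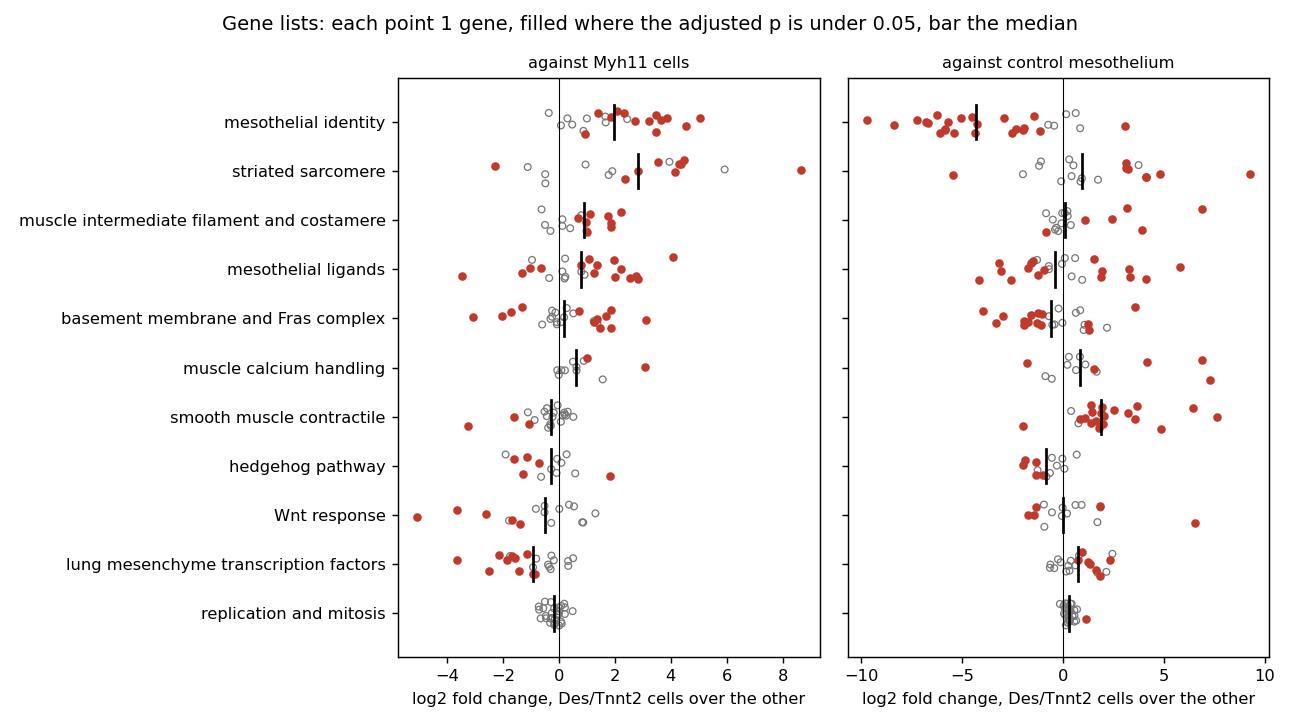
Log2 fold changes of Des/Tnnt2 cells over Myh11 cells (left) and over control mesothelium (right) for the tested members of 11 gene lists, 1 point per gene, filled where the adjusted p is under 0.05, with the list's median as a bar. Mesothelial genes lie to the right of 0 on the left and mostly far to the left of 0 on the right, and smooth muscle genes near 0 on the left and to the right of 0 on the right.

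The Des/Tnnt2 cells were not uniform. Tagln was seen in 98.3 and 93.2% of them at 5000 UMIs, but Actc1 in only 22 and 24.1% and Ramp1 in 43.2 and 40.7%. Without thinning the median Actc1 level was 0 in both libraries, and the top 10% of cells held 63.5 and 72.7% of its UMIs. The median Tagln level was 29.3 and 19.5 CP10k, with 10th to 90th percentiles of 6.1 to 82 and 2.35 to 60.6. Among 1384 genes with a mean of at least 0.5 UMI per thinned cell, the variance over the mean was 1.10 at the median, taking the lower of the 2 libraries. It was 13.5 for Tagln, 11.5 for Acta2, 7.91 for Actc1 and 6.13 for Myh11, all among the 12 highest of these genes, together with Malat1 at 25.9. The other 7 of the 12 were Gm42418, Tmsb4x, Mgp, Crip1, Hist1h1b, Thbs1 and Igfbp5.

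Myh11 level, which was no part of the choice, was used to describe this spread. In mutant 1, 61 Des/Tnnt2 cells held Myh11 at 3 CP10k or more and 32 under 1, and in mutant 2 it was 105 and 345, so that Myh11-high cells made up 49.6 and 18.9% of the Des/Tnnt2 cells and Myh11-low cells 26.0 and 62.1%. Acta2 stood at 3430.2 and 3776 CPM in the Myh11-high cells and 1339 and 955 in the Myh11-low cells. Actc1 stood at 347 and 743 CPM against 54.1 and 85, and Ramp1 at 197 and 354 against 39.6 and 76.5. These muscle genes were thus higher in the Myh11-high cells of both libraries. Msln went the other way, at 40.3 and 7.32 CPM in Myh11-high and 181 and 94.3 in Myh11-low cells. So did Krt7, at 9.75 and 7.93 against 58 and 54.3, and Krt18, at 75.4 and 48.2 against 114 and 133. S100a6 stood at 792 and 385 CPM against 1639 and 1328. Wt1 was nearly the same, at 37.3 and 32 against 40.2 and 35.9, and Des was a little lower in Myh11-high cells, at 1546 and 668 against 1832 and 991. The split was made on a measured level after these values were known to vary and is a description with no test.

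**Figure D5:**
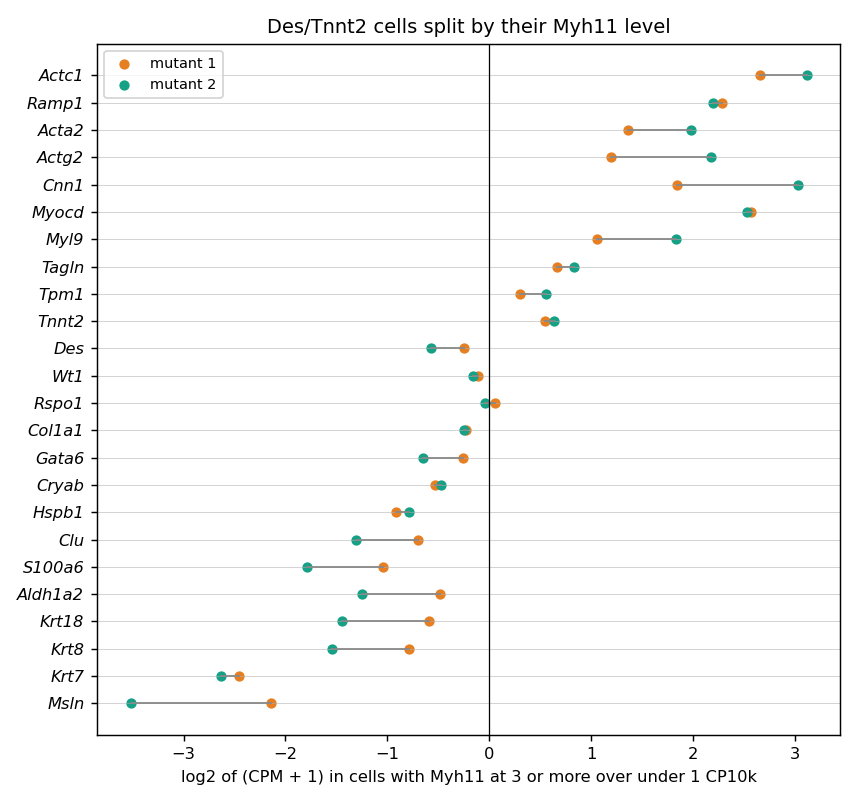
Des/Tnnt2 cells split by Myh11: for 24 genes, the log2 ratio of (CPM + 1) in cells with Myh11 at 3 CP10k or more over cells with Myh11 under 1 CP10k, in mutant 1 (orange) and mutant 2 (green). Contractile genes lie to the right of 0 and Msln and the keratins to the left in both libraries, with Wt1 near 0.

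The 2 libraries of Des/Tnnt2 cells were within 2-fold of each other for most genes. Of 3377 genes with a mean of at least 50 CPM, 106 (3.14%) differed over 2-fold between them, 87 higher in mutant 1. Those higher in mutant 1 included Col4a1, Col4a2 and Postn, and those higher in mutant 2 Ccl2 and Myl7. Col4a1, a basement membrane collagen, stood at 1455 and 465 CPM.

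Of the markers of other cell types, those of fibroblasts had the highest sum in Des/Tnnt2 cells. All 13 of them had UMIs and summed to 507 and 599.6 CPM. The sums were 715 and 732 CPM in Myh11 cells, 656 and 760 in control mesothelium and 2931 and 1672 in Tcf21 cells. All 11 immune markers summed to 3.54 and 16.9 CPM, with Ptprc at 0 in mutant 1, and 13 endothelial markers to 46.8 and 62.9, with Cdh5 at 0 in mutant 1. The 14 epithelial markers summed to 122 and 157 CPM, against 1358 and 32 in Myh11 cells, where the surfactant gene Sftpc alone reached 1141 CPM in mutant 1. The 9 erythroid markers summed to 8.78 and 13.2 CPM, against 738 in the Myh11 cells of mutant 2. The part of these transcripts in the comparison with Myh11 cells was not tested. The 11 pericyte markers summed to 150.4 and 104 CPM against 365 and 206 in Myh11 cells. Of 10 tested, 2 were lower than in Myh11 cells, Rgs5 and Notch3, where 3.59% of all genes were. Rgs5, a regulator of signalling in pericytes, stood at 21.9 and 20.7 CPM against 142 and 126 (-2.60 ± 0.18, adjusted p = 9.64e-05).

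Embryos of both sexes contributed. Of the Des/Tnnt2 cells with UMIs of either Xist or Y-linked genes but not both, 53.3% of 90 in mutant 1 and 85.8% of 457 in mutant 2 carried Xist, against 64.8 and 83.1% of all such cells of these libraries.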

How the data were processed

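Single-cell RNA was sequenced from 4 libraries (2 mutant, 2 Cre control) with the 10x Chromium 3' kit, version 3. The authors deposited UMI counts per gene and barcode, made with Cell Ranger 6.0.2 on mm10, per the submitters' processing notes. Of 32285 gene IDs, 32235 matched GENCODE vM21, which gave gene positions. Promoter windows came from the RefSeq table of GRCm38.p6.

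Barcodes were kept at 1000 or more genes and 15% or fewer mitochondrial UMIs, which removed 5.92 to 32.5% per library. Counts were summed per library and population and tested with edgeR 4.0.16 (quasi-likelihood, low-count filter, TMM, Benjamini-Hochberg), with DESeq2 1.42.0 as an alternative. Same-library sums deviated together (correlation 0.56 with Myh11 cells and 0.31 with Tcf21 cells), so the library was a block there. Depth per population was 286544 to 14731903 UMIs. On simulated data for the comparison with Myh11 cells, 190 of 200 genes with a log2 change of 1.5 were recovered with 4 false calls. The simulation gave every gene the same fixed spread, had no library effect and used a common profile for all populations apart from the changed genes. It checks that the fit runs correctly and does not measure the rate of false calls in these data. Scrublet, run in scanpy 1.11.5, gave doublet scores, and no cell was removed by them.

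The members, limits and gene lists were chosen with earlier results of these data known. Genes were named by a rule: the label and gate genes, Myrf and Wt1; the 10 largest changes each way per comparison with an adjusted p under 0.05, at least 50 CPM and no overlap between sums; and up to 4 genes per list by smallest p. One such gene is not reported here. Ccl7, Gata6, Krt7, Krt8, Krt19, Rspo1, Sftpc, Tcap, Upk3b, Xirp2, C3, Gpm6a and the genes of the variance and library comparisons were added after their values were seen. Alternatives changed the limits, the filter, the scaling, the block, the tool and the libraries included.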

Additional observations from a re-analysis of the deposited data

How the results depend on the processing

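With 2 libraries per population, calls depended on the model. Against Myh11 cells 1217 genes passed, but 715 by DESeq2, 1940 with no low-count filter, 1907 with only the 2 populations compared, 163 with no replicate block, and 527 to 809 with 1 library left out. Against Tcf21 cells 2604 passed, but 1702 by DESeq2, 1055 with no replicate block, and 1137 to 1848 with 1 library left out. Against control mesothelium 1738 passed, but 2615 with no filter, 855 with the Upk3b limit at 5 CP10k, and 1097 to 3365 with 1 library left out. There the replicate numbers share only a number (correlation of deviations 0.338, from 2 pairs), and a replicate block gave 3930. A fit without 1 library assumes that the lone sum varies like the others. Against Myh11 and Tcf21 cells such a fit had no block and added the 2 control mesothelium sums. Its spread came from those control sums alone and not from mutant cells. The causes were not tested, except that no filter tests more genes.

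The share of Des/Tnnt2 cells in mutants 1 and 2 and controls 1 and 2 was 19.7, 6.59, 0 and 0.222% at a limit of 4 CP10k, 37.9, 19.0, 1.42 and 5.41% at 1 CP10k, and 34.7, 15.97, 2.41 and 4.92% in cells thinned to 5000 UMIs, where 1 UMI reaches the limit. Both mutants stayed above both controls under each.

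Of 162 results on named genes, 80 kept direction and side of the threshold under every alternative. Over 2240 gene and alternative pairs, 110 lost a call, 45 gained one and 23 changed sign, all of these uncalled. Against Myh11 cells these were Cnn1 (-0.082 at a limit of 1 CP10k, -0.29 without mutant 1 against 0.46 without mutant 2, -0.39 with the Myh11 limit at 6), Jph2 (-0.45 against 1.40 likewise, -0.37 with that limit), Crispld2 (-0.041 with that limit), Lmod1 (0.71 without mutant 2 against -0.72 without mutant 1, 0.086 with no replicate block, 0.18 with Myh11 cells under 2 CP10k of Des) and Acta2 (0.15 without mutant 2 against -0.89 without mutant 1, 0.21 with those Myh11 cells). Against control mesothelium they were Fbln2 (0.038 at a limit of 4 CP10k, 0.022 without control 2, 0.44 without mutant 2 against -0.72 without mutant 1, 0.041 at Upk3b 5), Krt8 (-0.051 at 1 CP10k, -0.16 at Upk3b 20, -0.023 with Upk3b alone, an alternative added after seeing the data), Myl7 (-0.33 without mutant 2, 0.93 without mutant 1) and Cryab (-0.14 and 0.52), Foxp1 (0.0054) and Wnt5a (-0.11) at Upk3b 5, and Clu (-0.12) at Upk3b 20. With no replicate block 34 named calls were lost.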
